A study of Bos taurus with 71 samples.

Results

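The genes described here are the antigen-processing, cathepsin and chaperone genes of the calf gut: 24 of the 21510 genes measured in every library. They were chosen by symbol, as every gene whose symbol, in the part of the study's gene table at hand (1280 identifiers with a symbol), begins like the names of antigen-processing genes, heat shock proteins or cathepsins. The study describes that table as its immune-related genes detected in the jejunum or ileum. A gene found in the rumen alone could therefore not become a member. The members are 5 genes of the MHC class I pathway (B2M, CALR, CANX, ERAP1 and ERAP2), the class II transactivator CIITA, 11 cathepsins (CTSA, CTSB, CTSC, CTSF, CTSH, CTSK, CTSL, CTSO, CTSS, CTSW and CTSZ) and 7 heat shock protein genes (HSP90AA1, HSPA8, HSPB1, HSPD1, HSPH1 and 2 loci that both carry the symbol HSP90AB1). The rule also asks for BOLA, PSM, TAP, PDIA, LGMN and RFX symbols, and 0 members carry one. Proteasome, TAP1 and LGMN genes are therefore reported as partners of the members, from lists of related genes.

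The libraries were made by RNA-Seq from Holstein bull calves, sampled at birth before any colostrum (D0, 3 libraries per region) and at 7, 21 and 42 days of age (D7, D21 and D42, 5 libraries per region each). Calves older than D0 had received colostrum and then milk, and those of D21 and D42 were also offered calf starter. The study also rinsed its jejunum and ileum tissue with buffered saline, except at D0, so that handling differs between D0 and all later ages. Libraries came from the rumen (RU), the mid-jejunum (MJ) and the ileum (IL), 1 library per animal number and region and 18 per region, so the 54 libraries fall into 12 groups. The labels name no genotype or drug treatment for any group. The study numbers its jejunum and ileum samples by animal. The rumen libraries carry numbers of the same form, for which no source used here says that they mark the same calves.

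Antigen presentation shows peptides to T cells. In the class I pathway, peptides made in the cytosol, largely by the proteasome, are carried by TAP into the endoplasmic reticulum, trimmed there by the aminopeptidases ERAP1 and ERAP2, and loaded onto a heavy chain paired with beta-2 microglobulin (B2M) with help from chaperones such as calreticulin (CALR) and calnexin (CANX). In the class II pathway, which is switched on by CIITA, proteins taken up from outside are cut in endosomes and lysosomes by cathepsins, and cathepsin S (CTSS) removes the invariant chain (CD74) that blocks the peptide groove. Many cathepsins and heat shock proteins also have general duties in protein turnover and folding.

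Values are counts per 1000000 mapped reads (CPM) that the authors rounded to whole numbers, so that depth per library is unknown, a step of 1 CPM is the finest difference and levels are not corrected for gene length. A gene was called where the false discovery rate (FDR) was under 0.05 and the change over 2-fold, in a limma fit over all genes that passed a filter on low values. Log2 fold changes are on the scale of log2(CPM + 1) and are given ± their standard error. Of the 3 ileum libraries that need care, library 1 of D0 and library 1 of D42 lay nearest to a jejunum library (Pearson's r of log2 values over genes, which are not independent replicates, 0.954 and 0.961) and held 163 and 496 CPM of 6 summed B cell markers where the 15 ileum libraries that need no care held 4867 to 7275. Library 2 of D0 lay nearest to a D21 ileum library (r = 0.988). These 3, unlike the other 33 of 36 intestinal libraries, also did not hold the values of the study's own table for that sample. Of the 24 members, 17 lay outside the range of the other 15 ileum libraries in library 1 of D0, 15 in library 1 of D42 and 3 in library 2 of D0. Many results that rest on them are given with and without them. In the ileum at D0, 1 library is left without them. Some values are given only with them, among them rumen minus ileum at D42 for B2M, ERAP2, CIITA and HSPD1. These calls were kept without library 1 of D42.

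The rumen stood apart from both parts of the intestine, and most members called between them were lower in the rumen. At D7, 12 of the 24 members were called between rumen and jejunum, beside 32.2% of all genes tested. Of these, 10 were higher in the jejunum (17.6% of all genes) and 2 in the rumen (14.6%). At D0, 10 members were called (20.1% of all genes), 9 of them higher in the jejunum (12.8%) and 1 in the rumen (7.38%). At D21, 14 were called (32.6%), of which 10 had more in the jejunum (21.9%) and 4 in the rumen (10.7%). At D42, 13 were called (33.5%), of which 9 had more in the jejunum (23.5%) and 4 in the rumen (10%). The members called made up 41.7% to 58.3% of the 24, above the share of all genes each time. No test of that difference was made. The members come from genes that the study detected in the jejunum or ileum, whereas all genes tested include some that passed the filter in the rumen alone. The shares are therefore not like for like, and the choice of members by itself favours calls with less in the rumen. The same holds for the comparisons of rumen and ileum.

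Between rumen and ileum, 13 members were called at D7 (39.5% of all genes), 10 of them higher in the ileum (25.2%) and 3 in the rumen (14.3%). At D21 the 13 calls (43.9%) again split into 10 higher in the ileum (30.1%) and 3 in the rumen (13.8%). At D42 there were 14 (42.9%), 11 higher in the ileum (32.3%) and 3 in the rumen (10.6%). At D0, 3 members were called higher in the ileum (2.93%) and 0 in the rumen (2.6%), beside 5.53% of all genes in all.

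Jejunum and ileum differed in fewer members. At D7, 6 were called (27.1% of all genes), 3 higher in the jejunum (9.62%) and 3 lower (17.5%), and at 25% of the members this was close to the share of all genes. At D21, 5 were called (26.8%), 4 higher in the jejunum (12.1%) and 1 lower (14.7%). At D42 there were 2 (20.9%), 1 in each direction (7.64% and 13.3%), which at 8.33% of the members lay below the share of all genes. Without library 1 of the D42 ileum, 5 members were called (20.8% of them) beside 28.2% of all genes, so that the members again lay below the share of all genes. At D0, 1 member was higher in the jejunum (6.04%) and 1 was lower (2.83%), beside 8.87% of all genes, and with the animal number as a block 0 members were called.

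Of the 24 members, 17 were called in at least 1 of the 12 comparisons of regions and 6 in no comparison of any kind (CALR, CANX, CTSC, HSP90AA1, HSPA8 and HSPH1). The same counts over all genes were not made, so these numbers do not set the members apart from other genes. The median log2 fold change over all genes tested was off zero by -0.25 for jejunum against ileum at D7, by -0.31 for rumen against jejunum at D42 and by -0.29, -0.43 and -0.53 for rumen against ileum at D7, D21 and D42. It was also off by -0.23 for rumen against jejunum at D21, by -0.12 and -0.15 for jejunum against ileum at D21 and D42, and by -0.10 and 0.13 from D0 to D7 in the jejunum and the ileum. Rescaling each library by the median of its ratios to the others brought the medians of the 12 comparisons of regions to between -0.08 and 0.03. With that scaling, the split between jejunum and ileum at D7 turned from 3 members higher in each region into 4 higher and 1 lower in the jejunum, and the split over all genes from 1341 and 2434 into 1931 and 1701. No member called between regions changed direction under it.

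**Figure D1:**
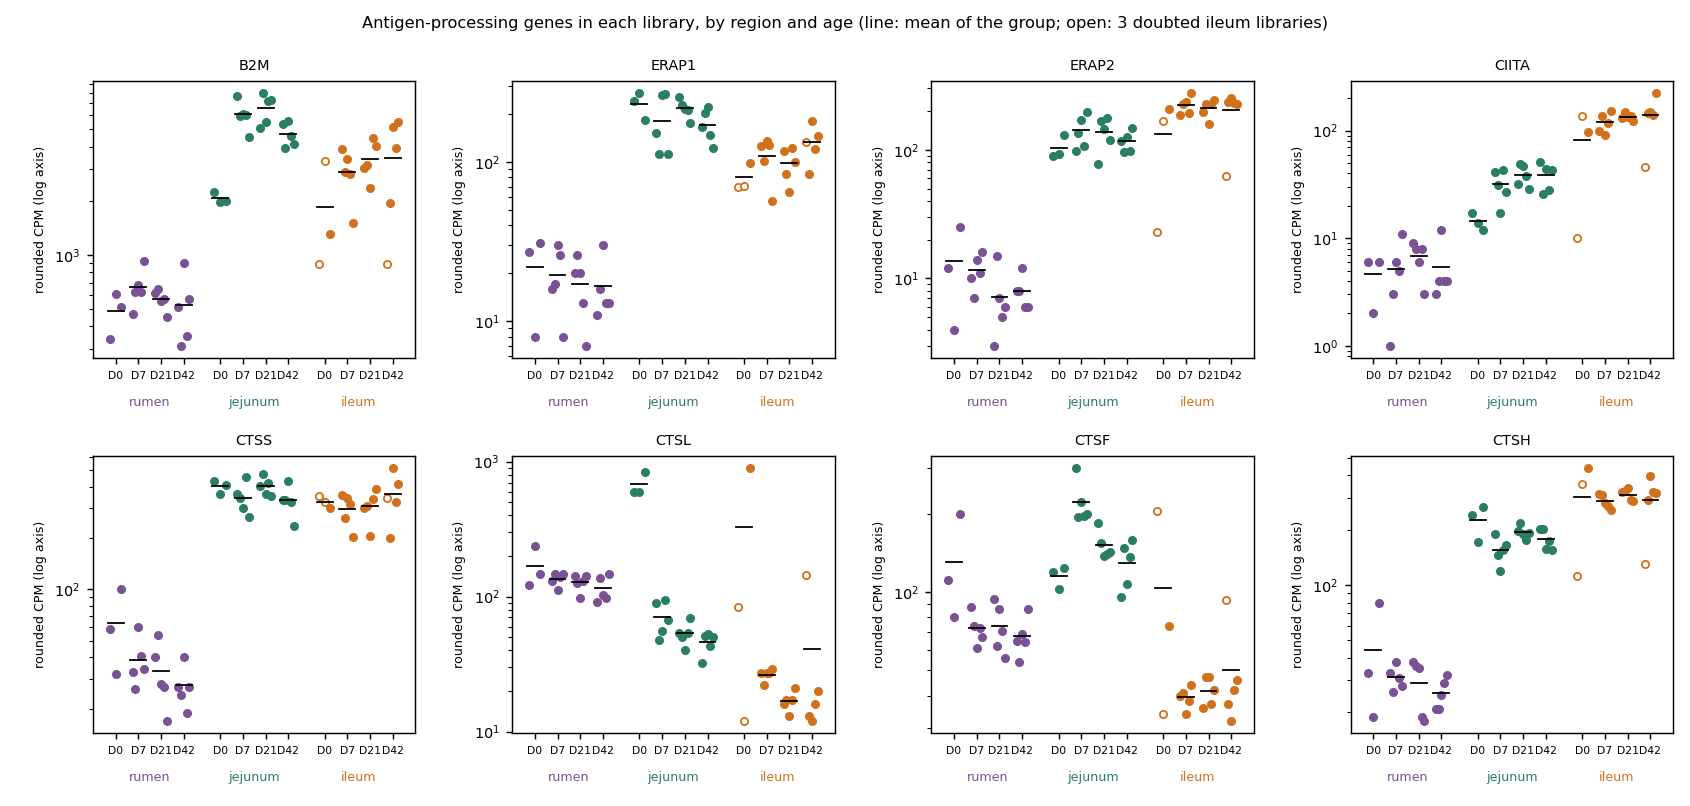
CPM of 8 members (log axis) in each of the 54 libraries, grouped by region and age, with the mean of each group as a line and the 3 doubted ileum libraries as open circles. B2M lay at 311 to 927 CPM in every rumen library and at 1959 or more in every jejunum library, and CTSL was at 591 to 844 in the jejunum at D0 and at 32 to 94 at all later ages.

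Class I genes B2M, ERAP1 and ERAP2 were higher in the jejunum than in the rumen at all 4 ages, and higher in the ileum than in the rumen from D7 to D42. The chaperones CALR and CANX were called in 0 of the 12 comparisons of regions. Between jejunum and ileum, B2M was called higher in the jejunum at D7 and ERAP1 at D0 and D21, and ERAP2 was called at no age with all libraries.

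B2M (ENSBTAG00000012330), the light chain that every class I molecule needs, was at 466, 617, 680, 623 and 927 CPM in the 5 rumen libraries of D7. In the jejunum of the same age it was at 7716, 5967, 6117, 6038 and 4519, and in the ileum at 3892, 2905, 3443, 2811 and 1512. The libraries did not overlap between rumen and intestine. Nor did jejunum and ileum overlap. Rumen against jejunum, the log2 fold change was -3.21 ± 0.21 (FDR = 2.00e-08) at D7, -3.53 ± 0.17 (FDR = 2.72e-09) at D21 and -3.25 ± 0.25 (FDR = 3.05e-07) at D42. Against ileum it was -2.10 ± 0.25 (FDR = 8.20e-06) at D7, -2.56 ± 0.18 (FDR = 5.28e-08) at D21 and -2.54 ± 0.49 (FDR = 8.75e-04) at D42. Jejunum against ileum gave 1.11 ± 0.26 (FDR = 0.00239) at D7, a call that ended without the lowest ileum library (library 5, 0.89), and 0.97 ± 0.21 (FDR = 0.0016) at D21, which lay just under 2-fold. At D42 the value was 0.71 ± 0.47 (FDR = 0.237), and 0.29 ± 0.30 (FDR = 0.429) without library 1 of the ileum.

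At D0 the jejunum already held more B2M than the rumen, at 2251, 1959 and 1989 against 339, 602 and 509 CPM (-2.13 ± 0.27, FDR = 0.00361). The jejunal level then rose by D7, in all 5 libraries above all 3 of D0 (log2 fold change 1.54 ± 0.22, FDR = 7.58e-04). In the rumen it moved by 0.46 ± 0.28 (FDR = 0.764) and in the ileum by 0.82 ± 0.45 (FDR = 0.348), neither called. The difference between the jejunal and the ruminal change was itself 1.08 ± 0.34 (FDR = 0.104), so a larger rise in the jejunum is not shown.

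ERAP1 (ENSBTAG00000013557) and ERAP2 (ENSBTAG00000039275), which lie next to each other in the RefSeq annotation of assembly ARS-UCD2.0, are aminopeptidases with different preferences for the peptides they trim. ERAP1 was at 20, 26, 20, 13 and 7 CPM in the rumen at D21. At the same age it was at 254, 227, 216, 212 and 175 in the jejunum and at 117, 84, 65, 123 and 100 in the ileum. Each set lay apart from the next, with the jejunum highest. The jejunum minus ileum value was 1.17 ± 0.17 (FDR = 8.72e-05) at D21, 0.68 ± 0.30 (FDR = 0.0648) at D7 and 0.38 ± 0.22 (FDR = 0.176) at D42. The call at D0 (1.52 ± 0.23, FDR = 0.0234) ended without the doubted libraries (1.20 ± 0.28, FDR = 0.0573), with the animal number as a block (1.52 ± 0.29, FDR = 0.117) and without any 1 jejunum library or ileum library 2. The rumen minus jejunum value was -3.52 ± 0.52 (FDR = 0.00612) at D0, -3.17 ± 0.34 (FDR = 3.11e-06) at D7, -3.69 ± 0.27 (FDR = 1.67e-07) at D21 and -3.35 ± 0.24 (FDR = 1.60e-07) at D42.

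ERAP2 was at 3, 15, 7, 5 and 6 CPM in the rumen at D21, at 77, 167, 144, 177 and 119 in the jejunum and at 198, 226, 160, 226 and 245 in the ileum. Here the ileum was highest, with some overlap with the jejunum. Of all members its difference between rumen and ileum was the widest at D21, -4.83 ± 0.29 (FDR = 1.37e-08), beside -4.19 ± 0.19 (FDR = 1.57e-09) at D7 and -4.38 ± 0.37 (FDR = 2.28e-06) at D42. Rumen against jejunum it was -3.49 ± 0.23 (FDR = 2.57e-08) at D7, -4.17 ± 0.33 (FDR = 3.31e-07) at D21 and -3.73 ± 0.19 (FDR = 5.39e-09) at D42. The call at D0 (-3.12 ± 0.61, FDR = 0.0166) ended when rumen library 1 or any 1 jejunum library of D0 was left out. Jejunum against ileum gave -0.69 ± 0.19 (FDR = 0.00715) at D7 and -0.66 ± 0.21 (FDR = 0.0153) at D21, both under 2-fold, and at D42 -0.65 ± 0.36 (FDR = 0.158) with and -1.04 ± 0.13 (FDR = 9.89e-05) without library 1, in which ERAP2 was at 62 CPM.

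The aminopeptidases were also set against each other within each library. The CPM of ERAP1 divided by that of ERAP2 lay between 0.207 and 0.714 in the 15 ileum libraries (median 0.517), between 0.566 and 3.30 in the 18 of the jejunum (median 1.51) and between 0.5 and 6.67 in the 18 of the rumen (median 2.15), where both genes were low. In the doubted libraries the ratio was 3.04 (D0, library 1), 0.428 (D0, library 2) and 2.16 (D42, library 1). The ratio compares libraries only, since CPM are not corrected for length.

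CALR and CANX, lectin chaperones of the endoplasmic reticulum, were called between no regions. CALR lay between 396 and 925 CPM in the rumen, 674 and 1384 in jejunal libraries and 625 and 1251 in ileal ones (625 and 1171 without the doubted libraries), and CANX between 467 and 913, 635 and 1127 and 598 and 1053. Their log2 fold changes over the 12 comparisons of regions ran from -0.74 to 0.30 for CALR and from -0.87 to 0.42 for CANX. At D7, jejunum against ileum was 0.16 ± 0.22 (FDR = 0.549) for CALR and 0.06 ± 0.18 (FDR = 0.793) for CANX. An FDR under 0.05 was reached by each in 1 of the 12, both between rumen and jejunum, -0.69 ± 0.15 (FDR = 0.00196) for CALR at D42 and -0.87 ± 0.20 (FDR = 0.0302) for CANX at D0.

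The partners of class I loading that supply its peptides were looked up in a list of 13 genes which the authors had picked as changing with age in the jejunum of these calves, so the list is no independent evidence of that change. From D0 to D7 in the jejunum, 4 of the 13 rose (3.94% of all genes) and 1 fell (5.56%). The peptide transporter TAP1 went from 75, 81 and 69 to 234, 217, 234, 145 and 252 CPM (1.49 ± 0.17, FDR = 2.24e-04), the class I transactivator NLRC5 from 19, 19 and 12 to 52, 79, 70, 43 and 95 (1.93 ± 0.26, FDR = 4.80e-04), and the ages did not overlap in either. The immunoproteasome subunits PSMB8 and PSMB9 rose by 1.14 ± 0.18 (FDR = 0.00118) and 1.43 ± 0.20 (FDR = 6.21e-04). Between rumen and jejunum at D7, 7 of the 13 were called (32.2% of all genes), all higher in the jejunum (17.6%). The 13 were picked in the jejunum, so these shares are not like for like. Among the 7, PSMB8 was at 14, 20, 20, 20 and 24 against 347, 334, 330, 200 and 299 CPM (-3.87 ± 0.17, FDR = 3.96e-10). PSMB9 gave -3.85 ± 0.24 (FDR = 1.5e-08) and TAP1 -3.05 ± 0.22 (FDR = 4.42e-08). Between jejunum and ileum 1 of the 13 was called at D7 (LGMN, -1.03), 0 at D21 and 1 at D42 (PSME2, 1.08), both named here after their values were seen. Of all genes, 27.1%, 26.8% and 20.9% were called at these ages. Interferon is a known inducer of these genes, and the interferon signalling genes IRF1, IRF8, IFNGR1 and IFNGR2 were called higher in the jejunum than in the rumen at D7. IRF1, a transcription factor induced by interferon, was at 20, 21, 31, 25 and 24 against 348, 311, 331, 329 and 329 CPM (-3.73 ± 0.13, FDR = 1.75e-11). From D0 to D7 in the jejunum, IRF1 gave 0.88 ± 0.11 (FDR = 3.91e-04), under 2-fold.

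On the class II side, CIITA (ENSBTAG00000020649), the factor that switches class II genes on, was called between all pairs of regions from D7 to D42. CIITA was at 9, 8, 6, 8 and 3 CPM in the rumen at D21. It was at 32, 49, 47, 38 and 29 in the jejunum and at 132, 148, 133, 138 and 124 in the ileum. The 3 regions did not overlap, and the same order held at D7, where the rumen was at 1, 3, 6, 5 and 11, the jejunum at 41, 31, 17, 43 and 27 and the ileum at 100, 136, 91, 118 and 154. Jejunum against ileum it was -1.92 ± 0.23 (FDR = 1.52e-05) at D7, -1.79 ± 0.14 (FDR = 7.39e-07) at D21 and -1.73 ± 0.37 (FDR = 0.00405) at D42, the last becoming -2.09 ± 0.22 (FDR = 3.42e-05) without library 1, in which CIITA was at 46 CPM beside 141 to 223 in the other 4. The rumen minus ileum value was -4.49 ± 0.38 (FDR = 4.45e-07), -4.19 ± 0.22 (FDR = 3.61e-09) and -4.45 ± 0.42 (FDR = 5.50e-06) at the same ages, and rumen against jejunum -2.57 ± 0.41 (FDR = 1.14e-04), -2.40 ± 0.26 (FDR = 4.73e-06) and -2.72 ± 0.31 (FDR = 8.72e-06).

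At D0 the libraries of the ileum held 10, 137 and 97 CPM of CIITA, the doubted first one being at the level of the jejunum, 17, 14 and 12. Set against the ileum, the jejunum gave -1.80 ± 0.96 (FDR = 0.243) with the 3 libraries and -2.69 ± 0.24 (FDR = 0.0132) against the 1 remaining library, a test that assumes the lone library to vary as the jejunum does. Rumen against jejunum at D0 was -1.53 ± 0.41 (FDR = 0.0462), a call that ended with a pseudocount of 0.5, with no filter on low values and without 5 of the 6 single libraries. In the jejunum CIITA rose from D0 to D7, at 41, 31, 17, 43 and 27 CPM, by 1.04 ± 0.27 (FDR = 0.0196). That call was lost in 5 of the alternatives, among them 1 fit over all 12 groups (1.04 ± 0.50, FDR = 0.171) and leaving out library 2 or 3 of D0 or library 1 or 4 of D7.

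CTSS (ENSBTAG00000017135), the protease of the last step of invariant chain removal, was lower in the rumen than in the intestine and was called between jejunum and ileum at no age. It was at 33, 26, 60, 41 and 34 CPM in the rumen at D7. It was at 361, 342, 299, 456 and 267 in the jejunum and at 358, 262, 343, 318 and 203 in the ileum. Rumen lay far below both, and jejunum and ileum overlapped. Jejunum against ileum was 0.22 ± 0.18 (FDR = 0.301) at D7, 0.40 ± 0.16 (FDR = 0.0427) at D21 and -0.08 ± 0.24 (FDR = 0.815) at D42, none called. Rumen against jejunum was -2.78 ± 0.42 (FDR = 0.00643) at D0, -3.15 ± 0.21 (FDR = 1.94e-08) at D7, -3.65 ± 0.24 (FDR = 6.13e-08) at D21 and -3.57 ± 0.19 (FDR = 1.13e-08) at D42. The call against the ileum at D0 (-2.48 ± 0.44, FDR = 0.0254) ended without the doubted libraries (-2.36 ± 0.78, FDR = 0.297), and also without rumen library 1 or ileum library 2 or 3.

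Of 10 other antigen-presentation genes listed beside the members, 3 were called higher in the ileum than in the jejunum at each of D7, D21 and D42 and 0 higher in the jejunum. They were IFI30, CREB1 and SYVN1, the last pair named after their values were seen. Of all genes, 17.5%, 14.7% and 13.3% were called higher in the ileum at these ages, and 9.62%, 12.1% and 7.64% higher in the jejunum. IFI30, the thiol reductase of the class II pathway, was at 53, 53, 41, 47 and 48 CPM in jejunal libraries of D7 against 124, 160, 155, 175 and 138 in ileal ones (-1.61 ± 0.12, FDR = 2.56e-07). The invariant chain CD74 was at 3508, 2859, 1951, 4607 and 2689 and 4573, 5144, 4156, 4837 and 3905 (-0.59 ± 0.22, FDR = 0.0367), and the class II peptide editor chain HLA-DMB gave -0.53 ± 0.15 (FDR = 0.00734), both under 2-fold. Against the rumen, where CD74 was at 296, 319, 433, 391 and 324 CPM, CD74 gave -3.10 ± 0.21 (FDR = 3.64e-08) for the jejunum and -3.68 ± 0.13 (FDR = 1.76e-10) for the ileum. HLA-DMB gave -2.86 ± 0.19 (FDR = 2.95e-08) and -3.39 ± 0.15 (FDR = 1.24e-09).

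Markers of other cell types moved with these class II differences. The summed CPM of 6 B cell markers ran from 23 to 58 in the rumen, from 29 to 119 in the jejunum at D0, from 724 to 5363 in the jejunum later and from 4867 to 7275 in the 15 ileum libraries. In the rumen at D42, 3 of the 6 were at 0 in every library. The sums hold genes that moved in opposite directions. The adaptor BLNK made up most of the sum in most rumen libraries and was called higher in the rumen than in the jejunum at D0 (1.73 ± 0.45, FDR = 0.0428) and D7 (1.59 ± 0.24, FDR = 7.64e-05), whereas the immunoglobulin heavy chain IGHM, which made up most of the sum in most intestinal libraries from D7, was lower in the rumen (-6.87 ± 0.33 at D7, FDR = 8.75e-10). At D7 all 6 were called, each with less in the jejunum than the ileum, and 5 of 6 at D21 and at D42. The summed CPM of 6 myeloid markers ran from 53 to 284 in the rumen, 206 to 428 in the jejunum and 458 to 905 in those 15 ileum libraries, and 6 T cell markers summed to 3 to 190, 119 to 350 and 86 to 263. Their part in the differences of CIITA, CTSS and the class II genes was not tested, and in bulk tissue fewer cells of a type and less RNA per cell cannot be told apart.

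Among the remaining cathepsins, CTSH, CTSO, CTSW and CTSZ were higher in both intestinal regions than in the rumen from D7 to D42, CTSA was higher in the ileum than in the rumen over the same ages, and CTSL was lower there. CTSF had the widest difference of all members between jejunum and ileum at D7 and at D21. CTSK was called in 1 of the 12 comparisons of regions and CTSB and CTSC in 0.

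CTSF (ENSBTAG00000010994), a lysosomal cysteine protease able to process the invariant chain, was at 299, 195, 221, 196 and 200 CPM in the jejunum at D7, at 40, 41, 34, 38 and 44 in the ileum, with 88, 74, 61, 73 and 67 in the rumen. The regions did not overlap. Between jejunum and ileum, the log2 fold change was 2.45 ± 0.13 (FDR = 3.13e-08) at D7, 1.84 ± 0.12 (FDR = 1.47e-07) at D21 and 1.43 ± 0.27 (FDR = 0.00194) at D42, with 1.68 ± 0.17 (FDR = 2.53e-05) without library 1, which was at 93 CPM where the other 4 were at 37, 32, 42 and 46. Between rumen and jejunum, the log2 fold change was -1.59 ± 0.15 (FDR = 6.07e-07) at D7 and -1.05 ± 0.15 (FDR = 7.13e-05) at D21, the latter falling under 2-fold with median-ratio scaling (-0.84) and without rumen library 2 or 5 or jejunum library 1. Rumen against ileum was 0.86 ± 0.12 (FDR = 3.29e-05) at D7, under 2-fold, and passed 2-fold with median-ratio scaling (1.12 ± 0.13, FDR = 5.90e-06).

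At D0 the regions were not told apart for CTSF, with 119, 103 and 124 CPM in the jejunum, 111, 80 and 199 in the rumen and 204, 34 and 74 in the ileum. By D7 every jejunum library lay above those of D0 (0.92 ± 0.16, FDR = 0.002, under 2-fold), while the means of the rumen and the ileum were lower (-0.74 ± 0.29, FDR = 0.646 and -1.01 ± 0.47, FDR = 0.317, neither called). The jejunal change differed from the ruminal one by 1.66 ± 0.33 (FDR = 0.00949) and from the ileal one by 1.94 ± 0.52 (FDR = 0.0307). Without the doubted libraries the latter was 1.82 ± 0.26 (FDR = 0.00189), and with all others kept the call was lost without any 1 of the 3 jejunum libraries of D0, jejunum library 1 or 3 of D7, or ileum library 3 or 4 of D7.

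CTSL (ENSBTAG00000017077), a lysosomal protease of general protein breakdown, made the largest change of the 5 members called with age. In the jejunum it was at 600, 591 and 844 CPM at D0 and at 89, 48, 56, 94 and 67 at D7, a log2 fold change of -3.27 ± 0.23 (FDR = 1.06e-05). It lay at 54, 50, 40, 54 and 69 at D21 and 32, 51, 53, 43 and 50 at D42. Rumen libraries were at 121, 236 and 147 at D0 and 131, 148, 112, 140 and 147 at D7 (-0.26 ± 0.24, FDR = 0.866), and the changes of both regions differed by -3.01 ± 0.34 (FDR = 1.42e-04). Hence the jejunum was above the rumen at D0 (rumen against jejunum -2.04 ± 0.31, FDR = 0.00648) and below it at D21 (1.24 ± 0.15, FDR = 1.67e-05) and D42 (1.31 ± 0.17, FDR = 3.35e-05), the only member called in both directions between these regions.

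In the ileum CTSL was at 27, 22, 27, 27 and 29 CPM at D7, the lowest of the 3 regions, and at 83, 12 and 893 at D0. The D0 libraries spread over a wide range, library 3, which is not among the doubted ones, being at the level of the D0 jejunum. The change from D0 to D7 was -1.86 ± 1.10 (FDR = 0.362) with all libraries and -5.03 ± 0.17 (FDR = 3.98e-04) with library 3 as the only D0 sample, a test that assumes a lone library to vary like the D7 ones. The jejunum minus ileum value was 1.35 ± 0.18 (FDR = 3.17e-05) at D7, 1.61 ± 0.16 (FDR = 3.73e-06) at D21 and 0.89 ± 0.58 (FDR = 0.234) at D42, the last becoming 1.53 ± 0.19 (FDR = 7.83e-05) without library 1, which was at 144 CPM beside 13, 12, 16 and 20. Between rumen and ileum, the log2 fold change was 2.32 ± 0.11 (FDR = 2.75e-09) at D7, 2.85 ± 0.15 (FDR = 3.05e-09) at D21 and 2.20 ± 0.57 (FDR = 0.00518) at D42, or 2.84 ± 0.19 (FDR = 2.09e-07) without library 1.

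Along with CTSL, the cathepsins CTSA and CTSB fell in the jejunum from D0 to D7. CTSA (ENSBTAG00000027337), a serine carboxypeptidase that also protects other lysosomal enzymes, went from 593, 480 and 723 to 299, 203, 235, 290 and 287 CPM, by -1.18 ± 0.18 (FDR = 9.17e-04). CTSB (ENSBTAG00000012442), an abundant lysosomal cysteine protease, went from 795, 576 and 1005 to 359, 326, 316, 380 and 382, by -1.13 ± 0.18 (FDR = 0.00116), and without library 3 of D0 the change was under 2-fold (-0.94). Neither gene's ages overlapped. For CTSA the jejunal change differed from the ruminal one by -1.58 ± 0.33 (FDR = 0.0117) and from the ileal one by -1.51 ± 0.43 (FDR = 0.0374). The first call was lost with median-ratio scaling (-1.51 ± 0.42, FDR = 0.0633), and the second in 13 of the alternatives, among them the one without the doubted libraries (-0.57 ± 0.28, FDR = 0.318). For CTSB the difference from the rumen was -1.02 ± 0.28 (FDR = 0.0564).

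Legumain (LGMN), the lysosomal asparaginyl endopeptidase that activates cathepsins, is in the authors' list of 13 and was singled out after its values were seen. It was at 789, 770 and 1239 CPM in the jejunum at D0 and at 61, 69, 42, 74 and 128 at D7 (-3.68 ± 0.30, FDR = 2.75e-05). In the ileum at D0 it was at 72, 145 and 683, high in library 3, the same library in which CTSL was at 893.

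**Figure D2:**
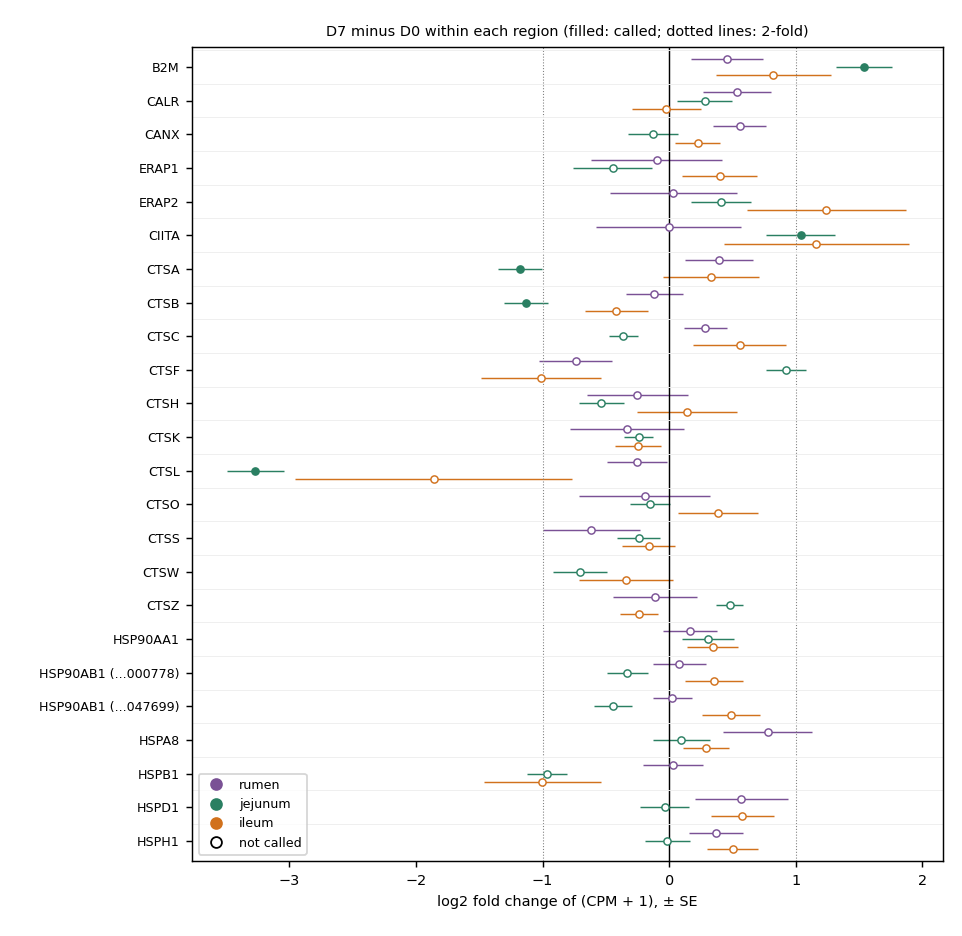
Log2 fold change of CPM + 1 from D0 to D7, ± SE, of the 24 members in the rumen, jejunum and ileum, with filled circles for calls and dotted lines at 2-fold. The 5 calls were jejunal, B2M and CIITA up and CTSL, CTSA and CTSB down, and CTSL at -3.27 lay farthest from zero.

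In all, the step from D0 to D7 moved 5 members of 24 in the jejunum, 2 up and 3 down, beside 9.5% of all genes tested (3.94% up and 5.56% down). Age, feeding and the rinsing of the tissue changed together at this step and cannot be told apart. In the rumen 0 of 23 members tested and 0 of 12900 genes were called by limma (0%), with 2 members and 957 genes at an unadjusted p under 0.05, and without rumen library 2 of D0 4 members (17.4%) and 15.2% of all genes were called. In that library the stroma markers summed to 4709 CPM beside 44331 and 46345, and the T cell markers to 190 beside 3 and 5. Its squamous or desmosomal sum did not stand apart (5292 beside 5018 and 2975). All comparisons with the rumen at D0 include this library. In the ileum 0 of 24 members and 0 of 13457 genes were called (0%), with 2 members and 2125 genes at an unadjusted p under 0.05. At the later steps, D21 against D7 and D42 against D21, 0 members were called by limma in any region. Between 0 and 4 members per step and region had an unadjusted p under 0.05. Over all genes 0% were called at these steps, except for 0.062% at D21 against D7 in the rumen (0.031% in each direction). Regions differed in how members changed up to D7 for 4 members between jejunum and ileum (12.2% of all genes), 2 in each direction (2.64% and 9.6%). Between jejunum and rumen 4 members were called (3.6%), 1 higher in the jejunum (1.54%) and 3 lower (2.06%). Between ileum and rumen limma called 0 (0.0211%), and 0 members had an unadjusted p under 0.05.

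B cell markers moved with these changes. The 6 of them summed to 29 to 119 CPM in the jejunum at D0 and 724 to 1837 at D7, and 1 of the 6, IGHM, was called (5.40). The 8 intestinal epithelium identifiers summed to 13691 to 24949 CPM at D0 and 12606 to 37112 at D7, with 1 called higher at D7 (CLDN3) and 2 lower (2 of the 3 loci named DPP4). The part of these markers in the changes of B2M, CIITA and the cathepsins was not tested.

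CTSH (ENSBTAG00000010992), an aminopeptidase of lysosomes, separated all 3 regions. It was at 33, 26, 38, 31 and 28 CPM in the rumen, 191, 146, 119, 156 and 167 in the jejunum and, also at D7, 317, 312, 284, 271 and 257 in ileal libraries. The rumen minus ileum value was -3.17 ± 0.12 (FDR = 1.97e-10) at D7, and rumen against jejunum -2.28 ± 0.15 (FDR = 1.77e-08). Set against the ileum, the jejunum gave -0.90 ± 0.13 (FDR = 6.27e-05) at D7 and -0.69 ± 0.09 (FDR = 3.78e-05) at D21, under 2-fold at both ages although the libraries did not overlap. CIITA, CTSF and CTSH were the 3 members whose libraries from D7 to D42 overlapped between none of the neighbours in the order of regions, with the 3 doubted libraries left out. The same count over all genes was not made, so whether the members are unusual in this is not known.

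CTSZ (ENSBTAG00000018784), a lysosomal carboxypeptidase, was at 41 to 61 CPM in the rumen at D7, 193 to 228 in the jejunum and 305 to 371 in the ileum, and rumen against ileum was -2.70 ± 0.12 (FDR = 8.66e-10). Jejunum against ileum was called at D0 (-1.42 ± 0.18, FDR = 0.0165), which ended with the animal number as a block (-1.42 ± 0.22, FDR = 0.109), and stayed under 2-fold at D7 (-0.70 ± 0.10, FDR = 4.08e-05). CTSO (ENSBTAG00000011063), a little-studied cysteine cathepsin, was at 1 to 8 CPM in the rumen, 9 to 18 in the jejunum and 5 to 15 in the ileum (9 to 15 in the 15 ileum libraries that are not doubted), so rumen against jejunum at D21 (-2.33 ± 0.21, FDR = 8.45e-07) rests on steps of few CPM. CTSW (ENSBTAG00000020773), a cathepsin of cytotoxic lymphocytes, was at 0 or 1 CPM in all 18 rumen libraries, at 3 to 27 in the jejunum and at 6 to 41 in the ileum. Its log2 fold changes, -2.94 ± 0.31 against the jejunum and -3.86 ± 0.29 against the ileum at D21, depend on the pseudocount of 1 and give no bound on the difference. The jejunum library with 27 CPM (D42, library 3) and the ileum library with 41 (D42, library 3) carry the same animal number. Between jejunum and ileum at D42 CTSW was called with the animal number as a block (-1.22 ± 0.31, FDR = 0.0248) and not without it.

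CTSA lay at 131 to 211 CPM in the rumen at D7, 203 to 299 in the jejunum and 421 to 502 in the ileum. Rumen against ileum was -1.55 ± 0.12 (FDR = 2.18e-07), and jejunum against ileum -0.83 ± 0.12 (FDR = 8.90e-05), under 2-fold with no overlap. CTSB ran from 285 to 650 CPM in the rumen, 304 to 1005 in the jejunum and 311 to 790 in the ileum, and its log2 fold changes over the 12 comparisons of regions from -0.70 to 0.54. CTSC (ENSBTAG00000011100), which activates the granule proteases of leukocytes, ran from 134 to 225, 160 to 365 and 106 to 386 CPM (225 to 386 in the 15 ileum libraries that are not doubted) and reached an FDR under 0.05 in 7 of the 12 without passing 2-fold. It passed 2-fold between rumen and ileum at D42 without library 1 of the ileum (-1.02 ± 0.14, FDR = 5.55e-05). CTSK (ENSBTAG00000021035), a collagen-degrading protease best known from osteoclasts, ran from 22 to 150, 44 to 70 and 53 to 115 CPM (53 to 70 in the 15 ileum libraries that are not doubted). It was called between rumen and ileum at D42 (-1.10 ± 0.25, FDR = 0.00268), a call that ended without library 1 of the ileum (-0.90 ± 0.21, FDR = 0.00212) and with median-ratio scaling (-0.61 ± 0.23, FDR = 0.0387).

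**Figure D3:**
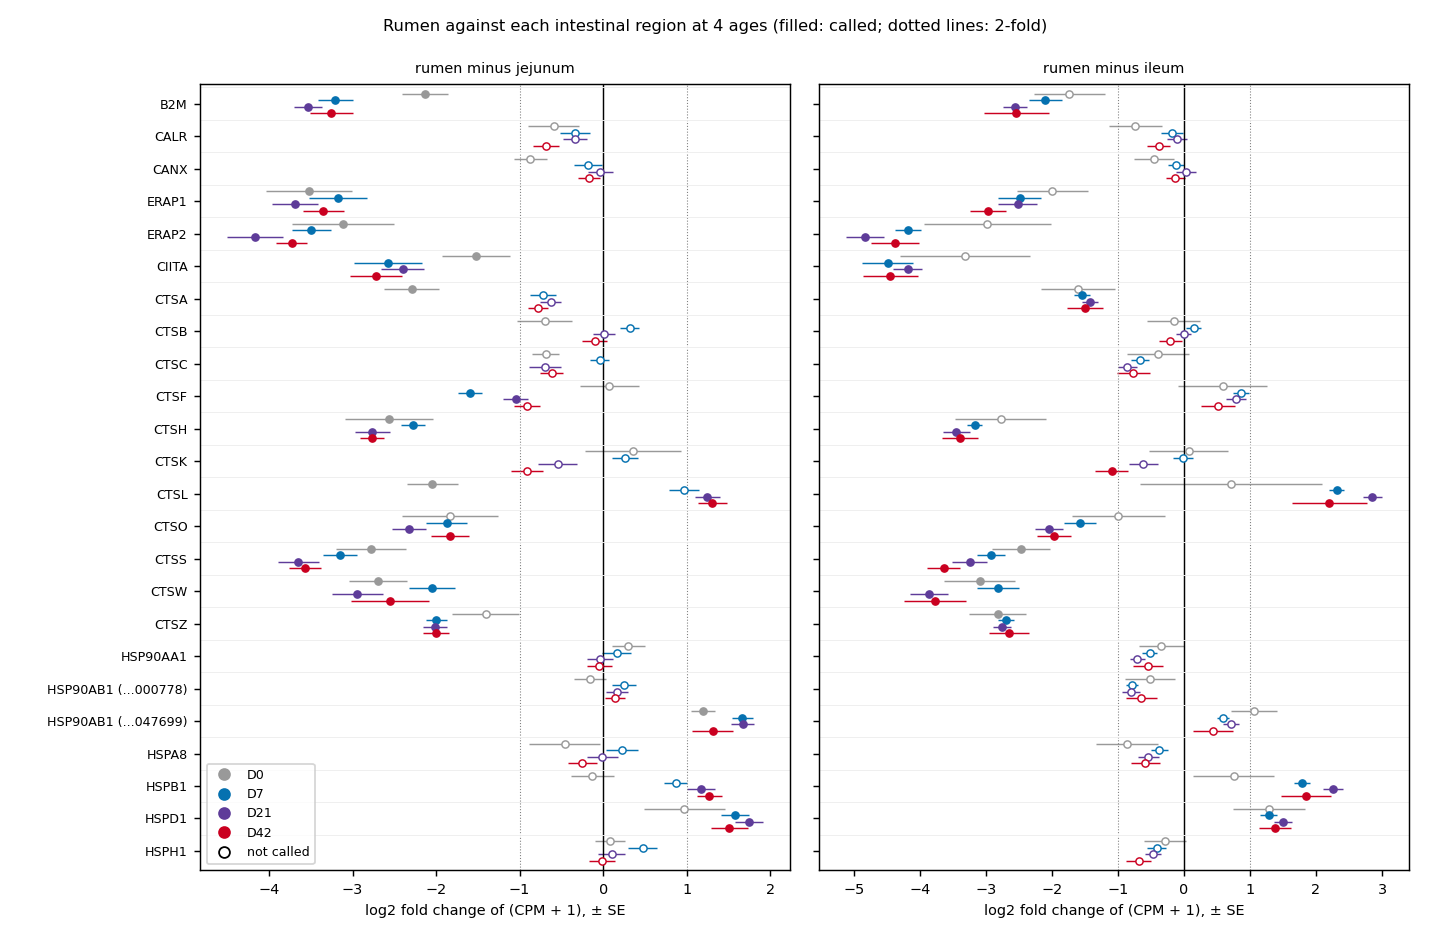
Log2 fold change of CPM + 1, ± SE, of the 24 members in the rumen against the jejunum (left) and against the ileum (right) at 4 ages, with filled circles for calls and dotted lines at 2-fold. B2M, ERAP1, ERAP2, CIITA, CTSH, CTSS and CTSW lay left of the line at all ages against the jejunum, and HSPD1 (from D7) and the minor HSP90AB1 locus lay right of the other line.

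Taking the ages together, 7 members were higher in the jejunum than in the rumen at all 4 ages (B2M, CIITA, CTSH, CTSS, CTSW, ERAP1 and ERAP2) and 1 was higher in the rumen at all 4, the minor HSP90AB1 locus. Against the ileum, CTSS, CTSW and CTSZ were lower in the rumen at all 4 ages, and B2M, CIITA, CTSA, CTSH, CTSO, ERAP1 and ERAP2 from D7 to D42. The share of all genes called at every age was not counted, so these counts do not mark the members out. The 3 calls against the ileum at D0 all ended when the doubted libraries were left out. By role, 3 of 5 class I members, CIITA and 6 of 11 cathepsins were lower in the rumen at D21 against the jejunum, and the same numbers against the ileum, in comparisons that share the rumen libraries. Higher in the rumen were 1 cathepsin in each comparison, 3 of 7 heat shock protein genes against the jejunum and 2 of 7 against the ileum. Of all genes at D21, 21.9% were lower in the rumen against the jejunum and 30.1% against the ileum, and 10.7% and 13.8% were higher.

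Tissue markers moved with this contrast as well. The 4 squamous or desmosomal epithelium markers summed to 2975 to 9161 CPM in the rumen, 521 to 814 in the jejunum and 217 to 751 in the 15 ileum libraries. The desmosomal protein DSP made up most of the rumen sum, and 3 of the 4 were called higher in the rumen than in the jejunum at each age. The fourth, the desmosomal cadherin DSG2, was called lower in the rumen at each age, at 31 to 92 CPM against 232 to 308 (-2.79 ± 0.13 at D7, FDR = 6.72e-10). The 8 intestinal epithelium identifiers summed to 31 to 110 CPM in the rumen and 3428 to 37112 in the jejunum, and 7 of the 8 were called lower in the rumen at each age. In the rumen, 1 or 2 of them were at 0 in every library of an age. The 4 stroma markers ran from 4709 to 46345 CPM in the rumen and 2821 to 10132 in the jejunum, and 4 of 4 were called higher in the rumen at D7, 2 at D21 and 0 at D0 and D42. The muscle filament gene DES, the 1 muscle marker listed, ran from 1054 to 10511 CPM in the rumen, 502 to 2713 in the jejunum and 189 to 1268 in the 15 ileum libraries. It was called higher in the rumen than in both intestinal regions from D7 to D42 (2.66 ± 0.45 against the jejunum at D7, FDR = 2.20e-04). Their part in the differences between rumen and intestine, HSPB1 included, was not tested.

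**Figure D4:**
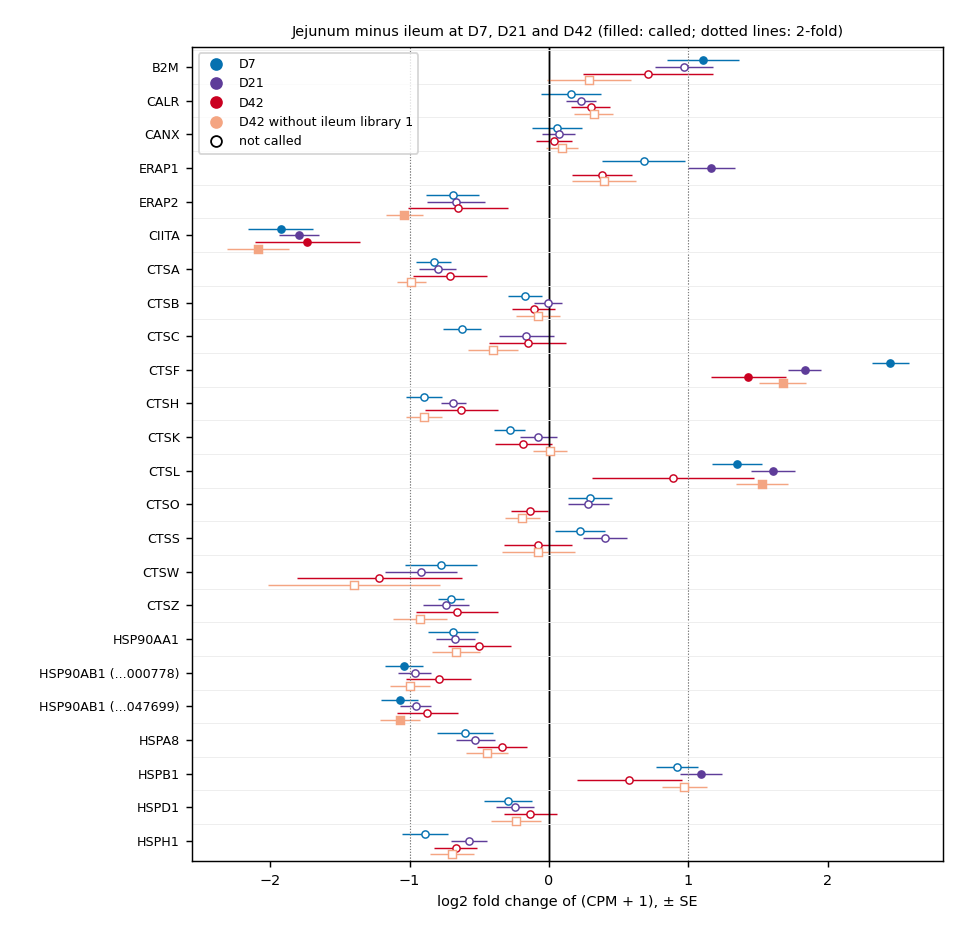
Log2 fold change of CPM + 1, ± SE, of the 24 members in the jejunum against the ileum at D7, D21 and D42, and at D42 without ileum library 1 (squares), with filled symbols for calls and dotted lines at 2-fold. CTSF lay farthest to the right (2.45 at D7) and CIITA farthest to the left (-1.92 at D7, and -2.09 at D42 without ileum library 1).

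Epithelial markers moved with the contrast of jejunum and ileum. The 8 intestinal epithelium identifiers summed to 3428 to 37112 CPM in the jejunum (median 13148.5) and 400 to 4919 in the 15 ileum libraries (median 1150), none being at 0 throughout a jejunum group. They were called higher in the jejunum in 6 of 8 cases at D7, 4 at D21 and 3 at D42, and lower in 0. Their part in the differences of CTSF, CTSL, B2M, ERAP1 and HSPB1 between these regions was not tested.

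The heat shock proteins, general folding helpers of which several also carry peptides or proteins for presentation, were called mainly as higher in the rumen. HSPD1 and the minor HSP90AB1 locus were higher in the rumen than in the jejunum from D7 to D42, and HSPB1 at D21 and D42. HSP90AA1, HSPA8 and HSPH1 were called in 0 comparisons.

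HSPB1 (ENSBTAG00000011969), a small heat shock protein of epithelia and muscle, was at 1017, 753, 1118, 1216 and 877 CPM in the rumen at D21, 533, 315, 442, 476 and 452 in jejunal libraries and 205, 174, 249, 231 and 175 in ileal ones. The regions did not overlap. Between rumen and ileum, the log2 fold change was 1.78 ± 0.12 (FDR = 6.14e-08) at D7, 2.26 ± 0.15 (FDR = 4.01e-08) at D21 and 1.85 ± 0.38 (FDR = 0.00131) at D42, where library 1 of the ileum was at 855 CPM beside 185, 289, 175 and 239. Without it the D42 value was 2.24 ± 0.19 (FDR = 1.52e-06). The rumen minus jejunum value was 1.17 ± 0.17 (FDR = 7.30e-05) at D21 and 1.27 ± 0.15 (FDR = 1.46e-05) at D42. Between jejunum and ileum, the log2 fold change was called at D21 (1.09 ± 0.15, FDR = 6.37e-05) and lay under 2-fold at D7 (0.92 ± 0.15, FDR = 1.80e-04), passing it with median-ratio scaling (1.20 ± 0.16, FDR = 2.90e-05). In the jejunum the gene was at 974, 888 and 926 at D0 and 517, 438, 517, 369 and 561 at D7 (-0.97 ± 0.16, FDR = 0.00148, just under 2-fold), a change that differed from the ruminal one by -1.0 ± 0.25 (FDR = 0.0397). That call was lost in 15 of the alternatives.

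HSPD1 (ENSBTAG00000012586), the mitochondrial chaperonin HSP60, was at 155, 196, 168, 215 and 184 CPM in rumen libraries of D7, 49, 61, 87, 47 and 66 in those of the jejunum and 81, 70, 92, 71 and 61 in those of the ileum. All rumen libraries of D7 to D42 lay above all those of the intestine, and jejunum and ileum overlapped (-0.29 ± 0.17, FDR = 0.152). Rumen against jejunum was 1.58 ± 0.17 (FDR = 2.58e-06) at D7, 1.74 ± 0.17 (FDR = 1.92e-06) at D21 and 1.51 ± 0.22 (FDR = 8.67e-05) at D42. The rumen minus ileum value was 1.28 ± 0.13 (FDR = 1.92e-06), 1.5 ± 0.14 (FDR = 8.62e-07) and 1.38 ± 0.24 (FDR = 3.97e-04).

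Of the cytosolic HSP90 genes, HSP90AB1 is counted at a pair of loci. The major HSP90AB1 locus (ENSBTAG00000000778) was at 1035, 1116, 940, 1086 and 1026 CPM in the rumen at D7, 807, 823, 1110, 722 and 951 in jejunal libraries and 1774, 1839, 1909, 1782 and 1682 in ileal ones. Its minor locus (ENSBTAG00000047699) was at 170, 172, 164, 166 and 159 CPM in the rumen. It was at 48, 46, 69, 44 and 55 in jejunal and at 105, 110, 114, 126 and 96 in ileal libraries of D7. Between jejunum and ileum both moved alike at D7 (-1.04 ± 0.14, FDR = 3.15e-05 and -1.07 ± 0.13, FDR = 1.81e-05), and both calls ended with median-ratio scaling (-0.76 ± 0.15 and -0.79 ± 0.14, under 2-fold). Between rumen and jejunum the major locus did not reach the threshold (0.25 ± 0.15, FDR = 0.163) while the minor one was called at all 4 ages, 1.20 ± 0.14 (FDR = 0.00287) at D0, 1.67 ± 0.13 (FDR = 1.21e-07) at D7, 1.67 ± 0.14 (FDR = 4.59e-07) at D21 and 1.31 ± 0.24 (FDR = 5.46e-04) at D42. Near-identical copies can share reads, and how such reads were counted at the pair is not given in the sources used here, so the split between them is uncertain. The change of the minor locus from D0 to D7 differed between jejunum and ileum by -0.93 with all libraries and by -0.47 (FDR = 0.372) without the doubted ones, and the call was lost in 14 of the alternatives.

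As a share of the major locus within the same library, the minor locus stood at 14.7% to 17.4% in 17 of the 18 rumen libraries, at 4.86% to 6.77% in the 18 of the jejunum and at 5.28% to 7.07% in the 15 of the ileum. The doubted ileum libraries lay at 5.11% to 6.14%. The remaining rumen library, library 2 of D42, was at 5.55%, with 61 CPM for the minor locus beside 132 to 173 in the other 4 of its group.

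HSP90AA1 (ENSBTAG00000006270), the inducible cytosolic HSP90, ran from 711 to 1107 CPM in the rumen, 712 to 1368 in the jejunum and 802 to 1874 in the ileum (1232 to 1874 in the 15 ileum libraries that are not doubted, all above the rumen). Its difference between jejunum and ileum, -0.69 ± 0.18 (FDR = 0.00501) at D7 and -0.67 ± 0.14 (FDR = 0.00143) at D21, was under 2-fold. HSPA8 (ENSBTAG00000013162), the constitutive cytosolic HSP70, was at 1885, 2037, 1990, 2216 and 2150 CPM in the rumen at D7, 1435, 1961, 2399, 1242 and 1988 in jejunal libraries and 3125, 2380, 3081, 2570 and 2279 in ileal ones. The jejunum minus ileum value was -0.60 ± 0.20 (FDR = 0.0182) at D7 and -0.53 ± 0.14 (FDR = 0.00598) at D21. HSPH1 (ENSBTAG00000005012), a nucleotide exchange factor of HSP70, ran from 72 to 172, 77 to 141 and 97 to 226 CPM (136 to 226 in the 15 ileum libraries that are not doubted), and jejunum against ileum was -0.89 ± 0.17 (FDR = 4.88e-04) at D7. All of these were under 2-fold. Of 6 listed HSP90 partners (HSF1 and 5 co-chaperones), 1 was called between jejunum and ileum at each of D7, D21 and D42, beside 27.1%, 26.8% and 20.9% of all genes. It was FKBP5, which was lower in the jejunum (-1.06, -1.28 and -1.45) and is named here after its values were seen.

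**Figure D5:**
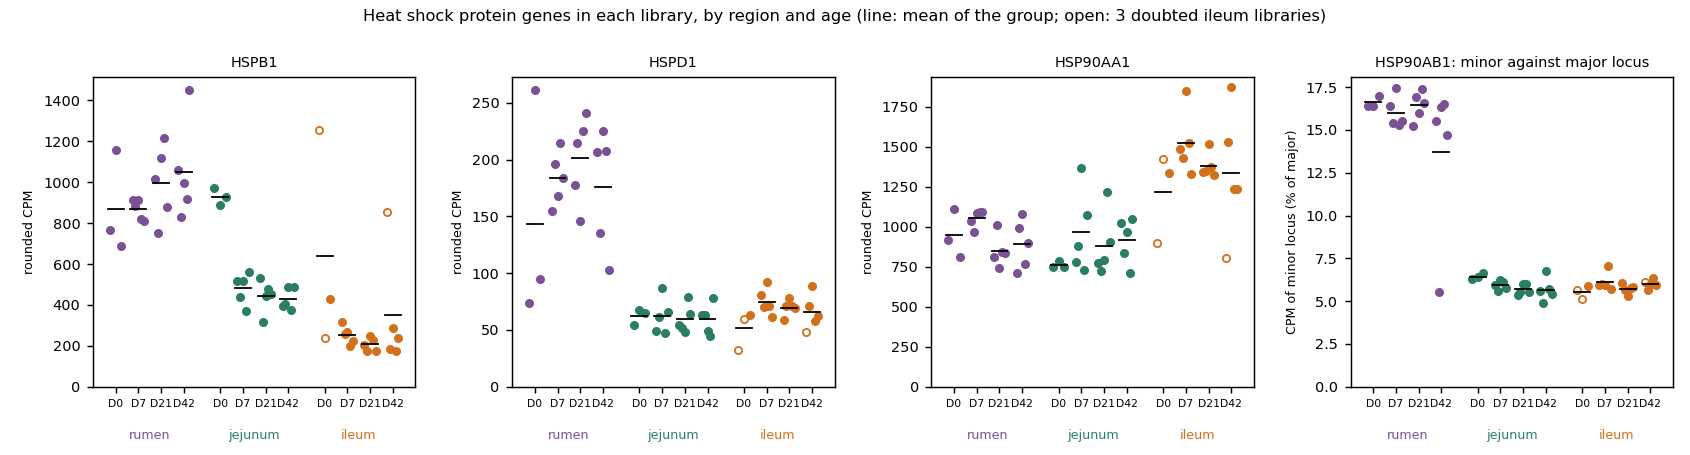
CPM of HSPB1, HSPD1 and HSP90AA1 in each library and, at the right, the CPM of the minor HSP90AB1 locus as a percent of the major one, by region and age, with group means as lines and the 3 doubted ileum libraries as open circles. The share was 14.7% or more in 17 rumen libraries and at most 7.07% in all others, rumen library 2 of D42 being at 5.55%.

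Across the ages from D7 to D42 and with the doubted libraries left out, the medians of 8 members ran ileum, jejunum, rumen from high to low (CIITA, CTSA, CTSC, CTSH, CTSK, CTSW, CTSZ and ERAP2). The order was jejunum, ileum, rumen in 5 (B2M, CALR, CTSO, CTSS and ERAP1), ileum, rumen, jejunum in 4 (HSP90AA1, the major HSP90AB1 locus, HSPA8 and HSPH1), rumen, ileum, jejunum in 3 (CTSB, HSPD1 and the minor HSP90AB1 locus), and jejunum, rumen, ileum in 2 (CANX and CTSF). It was rumen, jejunum, ileum in 2 (CTSL and HSPB1). Neighbours in the order overlapped between libraries in most of these, at both steps for CALR, CANX, CTSB, CTSC, CTSK, HSPA8 and HSPH1.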

How the data were processed

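RNA-Seq libraries of rumen, mid-jejunum and ileum were used, 54 in all. Per the labels and the study's methods, the authors base-called reads with CASAVA 1.8, aligned them to the bovine genome UMD3.1 with TopHat2 2.0.10, counted them per Ensembl gene with HTSeq, and deposited CPM rounded to whole numbers. These deposited values were handled as a score, since raw counts were not at hand, so the count test of the study was replaced by limma. The values of a library summed to between 970214 and 984626, and depth per library is unknown. Each of 17 files labelled distal jejunum held the same values as the ileum file of the same age and number and was not used.

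A gene was tested where its value exceeded 1 in 50% or more of the libraries of either region compared. Tests were run with limma 3.58.1 (R 4.3.3) on log2(value + 1), with the empirical Bayes trend, on the groups compared only. Genes were called at a Benjamini-Hochberg FDR under 0.05 and over 2-fold, and differences between regions in the change with age at an FDR under 0.05. There were 12 comparisons of regions, 9 of adjacent ages and 3 of changes. Comparisons of regions share samples with each other. The fits were first tested on simulated data. Tables and plots were made with Python 3.11.15, pandas 2.3.3, numpy 2.4.6 and matplotlib 3.10.9.

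The members, gene lists and markers were chosen with earlier results of these data known. Every member is named; per-sample values and statistics are given for up to 3 members per direction and pair of regions, for up to 4 per direction from D0 to D7, and for B2M, CIITA, CALR, CANX, ERAP1, CTSS and HSPA8. The remaining members are given by ranges or selected values, which were chosen after they were seen. The alternatives were a pseudocount of 0.5, no filter on low values, median-ratio scaling, 1 fit over all 12 groups, a fit with the sample number as replicate block, one without the 3 doubted ileum libraries, and each library left out in turn. The study's text ties the number of a jejunum or ileum sample to an animal, and the mean correlation of the deviations of same-numbered samples of these regions from their group means ran from -0.05 to 0.14 over the 4 ages. Rumen samples share only a number with them.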

Additional observations from a re-analysis of the deposited data

Results flagged for a closer look

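Among 216 groups of a member in a region and age with 5 libraries, 19 held 1 library far from the others by Dixon's test, where chance gives about 1 in 20 groups. Library 1 of the D42 ileum gave 5 of them, with CTSF at 93, CTSK at 115, CTSL at 144, ERAP2 at 62 and HSPB1 at 855 CPM. The rumen gave CALR at 544 (D21, library 3), CANX at 683 (D7, library 2), CIITA at 12 and ERAP1 at 30 (both D42, library 3) and HSPH1 at 146 (D21, library 2). The jejunum gave CTSF at 299 (D7, library 1), CTSO at 9 (D42, library 5) and CTSW at 27 (D42, library 3). In jejunum library 4 of D21, HSP90AB1 was at 1061 at its major and at 64 at its minor locus, and HSPH1 at 141. The other ileum libraries gave CTSL at 22 (D7, library 2), HSP90AA1 at 1515 (D21, library 3) and HSPH1 at 226 (D42, library 3).

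The change from D0 to D7 differed between regions in 8 tests at an FDR under 0.05. Jejunum minus ileum it was -1.51 for CTSA, 1.94 for CTSF, 0.72 for CTSZ and -0.93 for the minor HSP90AB1 locus on the log2 scale. Without the doubted ileum libraries the last was -0.47 (FDR = 0.372) and that of CTSA -0.57 (FDR = 0.318), and with median-ratio scaling that of the minor HSP90AB1 locus was -0.70 (FDR = 0.0941). Jejunum minus rumen it was -1.58 for CTSA, 1.66 for CTSF, -3.01 for CTSL and -1.0 for HSPB1.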

How the results depend on the processing

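Of 1430 values of 96 named changes under the alternatives, 1340 kept their direction and side of the threshold, 90 lost the threshold and 0 changed direction. The 96 were taken because they were called in the main fits, so gained calls could not appear among them. Many alternatives only leave 1 library out of the same fit, so few changes of direction could arise. With all 12 groups in 1 fit, 4 members were called between jejunum and ileum at D0 (2 with only the groups compared), 12 between rumen and ileum at D0 (3) and 3 from D0 to D7 in the ileum (0). Without the doubted ileum libraries the counts were 0 between rumen and ileum at D0, 5 between jejunum and ileum at D42 (2), 1 from D0 to D7 in the ileum and 1 for ileum minus rumen (0). Median-ratio scaling left 2 members (4) for jejunum minus ileum and 2 (4) for jejunum minus rumen. With the animal number as a replicate block, 0 members were called between jejunum and ileum at D0 and CTSW was gained at D42 (FDR = 0.0248). In comparisons with the rumen, whose samples share only a number, 34 of 72 samples correlated best with their own number. Between jejunum and ileum, where the number marks an animal, 16 of 36 did. Each sample had 3 (D0) or 5 (later ages) numbers to match. Whether the rumen samples come from the same calves is not settled by these counts. The block gave 9 members (10) between rumen and jejunum and 2 (3) between rumen and ileum at D0, CIITA (FDR = 0.0915) and CTSW (FDR = 0.0583) no longer being called. The block changed no other call. Leaving out 1 library at a time gave 0 to 5 members between jejunum and ileum at D0 (5 without ileum library 1, 0 without any 1 jejunum library), 0 to 7 between rumen and ileum at D0 (7 without ileum library 1, 1 without rumen library 1, 0 without ileum library 2 or 3), 2 to 5 between jejunum and ileum at D42 (5 without ileum library 1), 0 to 4 from D0 to D7 in the rumen (4 without library 2 of D0), 3 to 6 in the jejunum (3 without library 3 of D0), 0 to 8 for jejunum minus ileum (8 without ileum library 3 of D0), 3 to 9 for jejunum minus rumen (9 without rumen library 2 of D0) and 0 to 1 for ileum minus rumen (1 without the same library). The cause of these shifts was not tested. Depth is unknown, and the rounding to 1 CPM limits CTSO, CTSW and the rumen values of CIITA and ERAP2. Where 1 library is left in a group, it is assumed to vary like the others.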
